A study of Homo sapiens with 6 samples.

Results

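The solute carrier genes expressed in Panc-1 cells were taken as the probe sets annotated to a single gene whose symbol is SLC with a number and a letter, outside the families SLC2, SLC25 and SLC35, with a mean log2 signal of at least 6.64 over 6 arrays. A probe set is a group of short probes read as 1 value, and 6.64 is the log2 of a signal of 100. The rule kept 186 probe sets of 118 genes, out of 605 such SLC probe sets of 286 genes and out of 54675 probe sets on the array. The members were selected on their measured level over all arrays, so these levels are given as a description, while the difference between groups did not enter the choice. Just inside the limit lay a probe set of SLC12A2-DT at 6.64, 1 of SLC7A8 at 6.67 and 1 of SLC22A4 at 6.69, and just outside it lay 1 of SLC9A3-AS1 at 6.62, 1 of SLC18B1 at 6.63 and a further probe set of SLC5A3 at 6.63. Of the members, 12 had a mean below the limit in 1 of the groups.

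Panc-1 is an established pancreatic carcinoma line, and its RNA was hybridised to Affymetrix U133 Plus arrays. The arrays came from 3 samples exposed for 48 h to porcine TGFβ at 5 ng/mL and from 3 untreated control samples, which per the methods received plain medium instead. Serum was withheld from both groups for the preceding 24 h. TGFβ is a cytokine that drives epithelial-mesenchymal transition, and the study asked how glycosylation genes move with it. The labels number the samples of each group 1 to 3 but do not say that they came from separate cultures, and everything rests on 1 line, so the p-values measure only the spread between these samples.

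Solute carriers are membrane proteins that move amino acids, ions, vitamins, nucleosides and metals across lipid membranes, many of them driven by the sodium gradient that the sodium pump maintains. In the pancreatic duct, carriers of sodium, chloride and bicarbonate serve the secretion of bicarbonate-rich fluid, and tumour cells use carriers of glutamine, leucine and cystine to sustain growth. Not all SLC proteins sit at the cell surface. Among the members, 111 genes (177 probe sets) encode carriers, and 31 of these genes (50 probe sets) act mainly in lysosomes, Golgi, endoplasmic reticulum, mitochondria or vesicles by what is known of them, so the set was not confined to the plasma membrane. The other 7 genes (9 probe sets) carry an SLC name but are antisense, divergent, pseudogene-like or otherwise named transcripts (SLC4A1AP, SLC7A6OS, SLC38A2-AS1, SLC12A2-DT, SLC66A1LP, SLC67A1-AS and SLC71A3P).

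Median signals of the 6 arrays lay between 5.14 and 5.21 (log2), and the lowest correlation between arrays of a group was 0.995, across probe sets that are not independent of each other. Of 6 ductal and epithelial markers, 5 reached the level limit, and both probe sets of KRT19 stayed below it, with log2 means of 4.19 on TGFβ arrays and 5.45 on untreated arrays at 201650_at and of 4.78 on TGFβ arrays and 4.83 on untreated arrays at 228491_at. Markers of acinar, endocrine, fibroblast, endothelial and leukocyte cells that could be read reached it in no case. No probe set named PRSS1, AMY2A, CTRB1, PPY or CD68 alone. Thus only 3 of 6 acinar, 4 of 5 endocrine and 4 of 5 leukocyte markers were read. The epithelial genes KRT8, KRT18 and EPCAM were lower, with log2 means of 9.27, 11.78 and 7.82 on TGFβ arrays and 11.45, 13.03 and 8.62 on untreated arrays. Of the other markers at the limit, SOX9 rose by 0.28 on 202935_s_at (adjusted p = 0.0129) and gave -0.01 on 202936_s_at, and KRT7 gave 0.24 and did not pass. The control probe sets of ACTB differed in their 3′ minus 5′ log2 signal, at 0.335 ± 0.06 on TGFβ arrays and 0.554 ± 0.031 on untreated arrays (SD, n = 3 each), whereas those of GAPDH gave -0.028 ± 0.023 on TGFβ arrays and -0.01 ± 0.01 on untreated arrays. The part of these shifts in the results below was not tested. In such bulk samples, fewer cells of a type and less RNA per cell cannot be told apart.

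Between TGFβ-treated and untreated cells, 63 of the 186 member probe sets were higher and 46 lower, and 77 did not pass the test. The test was limma on log2 values with the replicate number as a block, with p adjusted by Benjamini-Hochberg over all 19120 probe sets tested and called under 0.05. Of all probe sets tested, 26.6% were higher and 28.5% lower, so 33.9% of members higher stands beside 26.6%, and 24.7% lower beside 28.5%. Either way, 58.6% of members passed against 55.1% of all. With a change of at least 1.5-fold also required, 19 members were higher and 13 lower, where the shares over all probe sets were 6.84% and 7.6%. All 3 TGFβ values lay above all 3 untreated values for 78 members (31.9% over all) and below them for 54 (33.6% over all). The median log2 fold change of members, TGFβ minus untreated, was 0.061, against -0.0079 over all probe sets tested. Counted by gene, 35 genes had every member probe set higher, 25 every one lower, 38 none passing, 7 some higher, 11 some lower and 2 both directions. The methods' t-test with the same adjustment called 14 of 186 members higher and 11 lower. Over all 19115 probe sets that it tested, 1464 were higher and 1465 lower. By that test the share of members higher was no larger than the share over all. The plot by substrate group shows carriers of amino acids mostly to the right of 0 and ion carriers spread furthest to both sides.

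**Figure D1:**
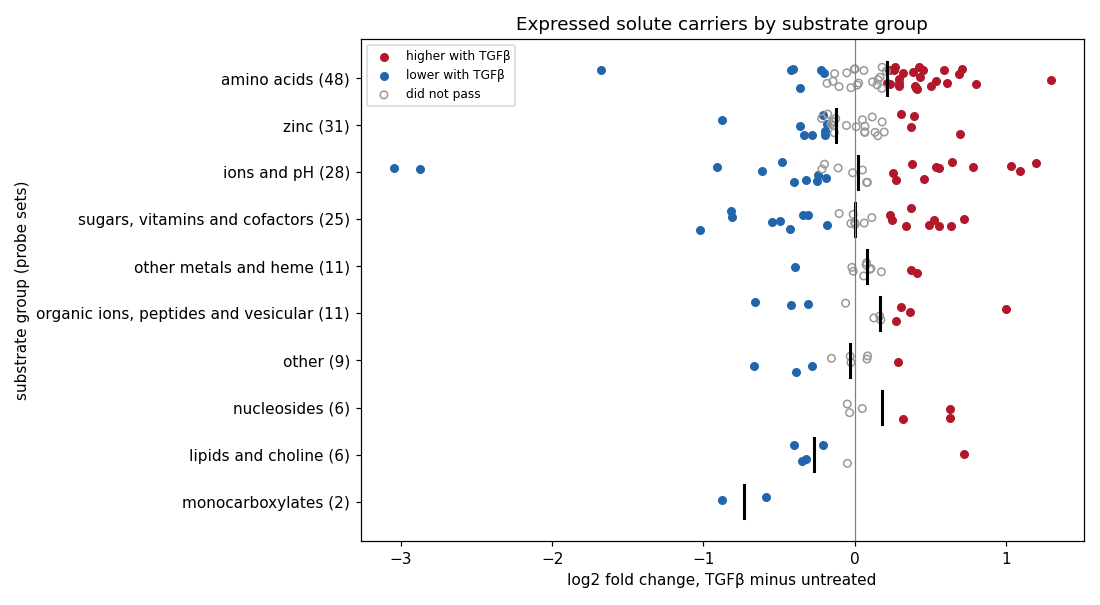
Log2 fold change (TGFβ minus untreated) of each of the 177 carrier probe sets, one row per substrate group with its number of probe sets; red and blue points passed the test, open points did not, and black bars are group medians. The amino acid group has 24 higher and 6 lower probe sets, and the 2 points near -3 are SLC4A11.

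The most marked fall was that of SLC4A11 (Entrez 83959, chromosome 20), a member of the bicarbonate transporter family that conducts protons or hydroxide and is mutated in a corneal dystrophy. Its probe set 223748_at read 9.14, 8.84 and 8.94 on the TGFβ arrays, against 12.07, 11.99 and 12.02 on the untreated arrays (log2 signal). The groups lay far apart, and the signal fell by 3.05 on the log2 scale (SE 0.065, adjusted p = 6.81e-06), 8.27-fold lower. A second probe set, 233550_s_at, gave 6.9, 6.91 and 7.11 with TGFβ and 9.77, 9.74 and 10.03 without it, a 7.33-fold fall.

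SLC6A6 (Entrez 6533, chromosome 3) takes up taurine, an organic osmolyte, with sodium. It read 8.29, 8.12 and 8.22 on TGFβ arrays and 9.82, 9.88 and 9.96 on untreated arrays. No values overlapped, and it fell by 1.68 (SE 0.067, adjusted p = 2.48e-05), 3.19-fold lower. SLC5A3 (Entrez 6526, chromosome 21), which carries myo-inositol, another osmolyte, was lower on both member probe sets, 212944_at with 10.18, 10.04 and 10.19 on TGFβ arrays and 10.92, 10.93 and 11.02 on untreated arrays. Both probe sets of SLC5A3 were 1.76-fold lower (adjusted p = 0.000158 and 0.000186). Its probe set just outside the level limit averaged 6.19 with TGFβ and 7.07 without.

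Other genes that fell had varied roles. SLC46A3, a lysosomal carrier, averaged 6.40 ± 0.21 with TGFβ and 7.42 ± 0.07 without (SD, n = 3 each), and fell by 1.02 (adjusted p = 0.000528), its TGFβ mean below the level limit. SLC24A1, a sodium, calcium and potassium exchanger known from rod photoreceptors, read 8.35, 8.16 and 8.43 on TGFβ arrays and 9.27, 9.11 and 9.29 on untreated arrays, 1.88-fold lower. SLC30A4, which loads zinc into vesicles, read 8.60, 8.33 and 8.53 with TGFβ and 9.34, 9.36 and 9.40 without, 1.84-fold lower. SLC16A5, the one member of the monocarboxylate transporter family at the level limit, was lower on both of its probe sets, 1.84-fold and 1.5-fold. SLC67A1 fell by 0.67 and SLC22A23, an orphan of the organic ion family, by 0.66.

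Rises were smaller than the largest falls. SLC20A1 (Entrez 6574, chromosome 2), the sodium-phosphate cotransporter PiT-1, read 11.51, 11.41 and 11.50 on TGFβ arrays and 10.41, 10.34 and 10.38 on untreated arrays. Every TGFβ value was above every untreated one, 2.13-fold higher (log2 1.09, SE 0.054, adjusted p = 4.25e-05). SLC41A2, a magnesium carrier, rose on all 3 of its probe sets, by 1.20, 1.03 and 0.56. Probe set 223798_at read 8.71, 8.70 and 8.61 with TGFβ against 7.70, 7.66 and 7.56 without. The untreated mean of the probe set that rose by 1.20 lay below the level limit. SLC22A4, the ergothioneine carrier OCTN1, read 7.32, 7.14 and 7.10 with TGFβ and 6.29, 6.27 and 6.01 without, 2.00-fold higher with an untreated mean of 6.19 below the level limit, while its near relative SLC22A5, which carries carnitine, averaged 7.44 ± 0.09 with TGFβ and 7.75 ± 0.07 without and fell by 0.31 (adjusted p = 0.0162). Without the replicate 2 arrays the SLC22A5 value was -0.22 with adjusted p = 0.105. SLC27A4, which activates long-chain fatty acids and is counted below among carriers that act mainly inside the cell, rose by 0.72.

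**Figure D2:**
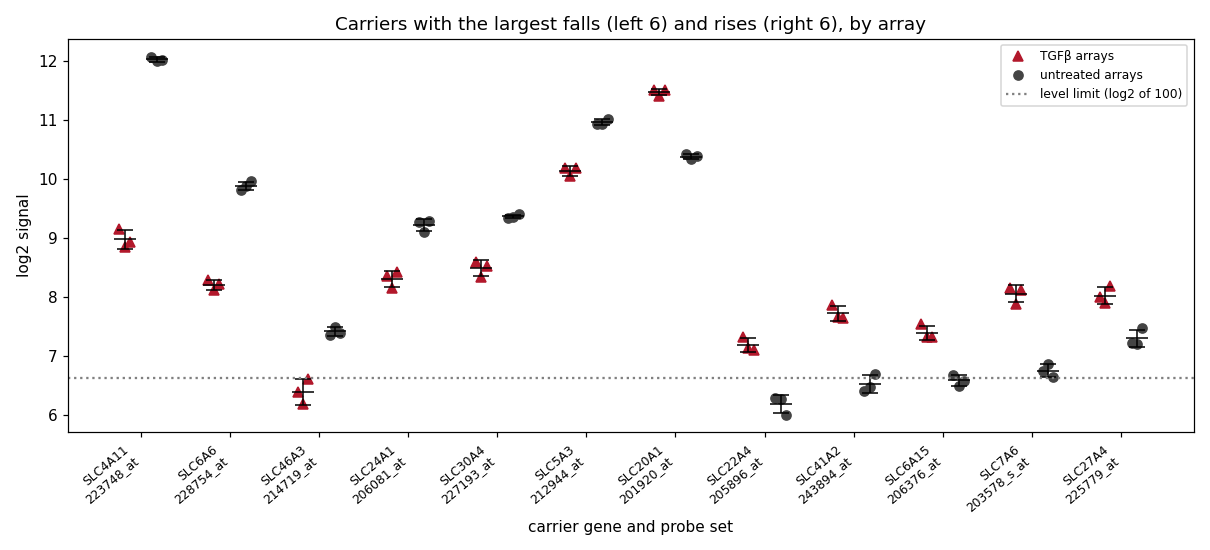
Log2 signal on each array for the 6 carrier genes with the largest falls (left) and the 6 with the largest rises (right), red triangles for TGFβ and grey circles for untreated arrays, with bars for the mean and SD (n = 3). Each gene is drawn at its probe set with the largest change. The 12 were picked by size of change, so the lack of overlap between their groups is no separate result. Over all probe sets tested, the groups did not overlap for 31.9% (higher) and 33.6% (lower). SLC4A11 is the widest apart, near 9 with TGFβ and 12 without.

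Amino acid carriers were grouped by family, which also brought in the carriers of taurine (SLC6A6), creatine (SLC6A8) and dopamine (SLC6A3). This group was the largest, with 48 probe sets of 27 genes. Of these, 24 rose (50%, against 26.6% of all probe sets tested), 6 fell (12.5%, against 28.5%) and 18 did not pass, with a median log2 fold change of 0.21 against -0.0079 over all probe sets. All 5 probe sets of SLC1, 4 of them of the gene SLC1A4, the sole one of SLC3 and 8 of 12 of SLC7 rose, and 0 fell. The other rises were 6 in SLC38, 3 in SLC6 and 1 in SLC36. SLC3A2, the heavy chain that partners several SLC7 light chains, read 10.67, 10.72 and 10.63 on TGFβ arrays and 10.21, 10.29 and 10.32 on untreated arrays, 1.32-fold higher (adjusted p = 0.00222). Its partner SLC7A5 (LAT1), which exchanges leucine and other large neutral amino acids for glutamine, read 10.85, 10.61 and 10.71 with TGFβ and 10.10, 9.93 and 10.31 without, 1.53-fold higher (adjusted p = 0.0014).

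A second light chain, SLC7A6 (y+LAT2, Entrez 9057), which exchanges arginine for glutamine, rose on 3 probe sets by amounts that differed widely. On 203578_s_at it read 8.15, 7.89 and 8.12 with TGFβ and 6.75, 6.88 and 6.64 without, 2.45-fold higher (log2 1.30, SE 0.098, adjusted p = 0.000194). The other probe sets rose by 0.71 and 0.29, and the smallest of these rises lost its call without the replicate 3 arrays (0.24, adjusted p = 0.0649). SLC7A6OS, a separate gene next to SLC7A6, rose by 0.41. SLC7A1 (CAT1), which takes up arginine and lysine without a heavy chain, rose on all 3 probe sets, by 0.69, 0.59 and 0.32, and 212290_at read 9.18, 8.73 and 8.76 on TGFβ arrays and 8.36, 8.06 and 8.19 on untreated arrays.

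The light chain SLC7A11 (xCT), which exchanges cystine for glutamate, was split between its probe sets. Probe set 207528_s_at rose by 0.54 (adjusted p = 0.00246), with 7.04, 7.23 and 6.90 with TGFβ and 6.71, 6.64 and 6.20 without. Its untreated mean lay below the level limit. The other pair, 209921_at and 217678_at, gave -0.05 and -0.10 and did not pass (adjusted p = 0.453 and 0.184), so no single direction is given for SLC7A11. SLC7A8 (LAT2) passed on neither probe set, with 0.00 and 0.21.

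Neutral amino acid exchangers of the SLC1 family rose on all 5 probe sets. SLC1A5 (ASCT2), a main route of glutamine uptake, read 9.29, 9.06 and 9.17 on TGFβ arrays and 8.61, 8.66 and 8.91 on untreated arrays, 1.36-fold higher (adjusted p = 0.00638). SLC1A4 (ASCT1), which carries serine and alanine, rose by 0.41 to 0.43 on 4 probe sets. SLC6A15, a sodium-driven carrier of branched-chain amino acids and proline best known from brain, read 7.54, 7.32 and 7.33 with TGFβ and 6.68, 6.5 and 6.58 without, 1.75-fold higher (adjusted p = 0.000144). Its untreated mean lay below the level limit. SLC6A8, the creatine carrier, rose by 0.50 and 0.39 on 2 probe sets whose names end in _x_at, which can bind related transcripts such as the near-identical copies of this gene, and gave 0.03 (adjusted p = 0.85) on 202219_at. The members of SLC6A3, SLC6A17, SLC6A19, SLC36A4, SLC43A2, SLC66A1 and SLC66A2 did not pass (-0.18 to 0.18). SLC36A1, a lysosomal proton-coupled carrier, rose by 0.27 and SLC66A3 fell by 0.22, and both calls were lost without replicate 3 (adjusted p = 0.0536 and 0.157). The SLC66A3 call was also lost without replicate 2, with no filter on low signal and with each array centred on its median.

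SLC38 carriers did not share a direction. SLC38A2 (SNAT2), which takes up small neutral amino acids with sodium and is known to be induced by amino acid lack and by hypertonic medium, fell on all 3 probe sets. Probe set 218041_x_at read 12.73, 12.71 and 12.67 on TGFβ arrays and 13.13, 13.08 and 13.17 on untreated arrays, 1.34-fold lower (adjusted p = 0.00157). SLC38A1 (SNAT1) rose by 0.24 on 1 probe set and gave 0.06 and 0.18 on the others. SLC38A7 and SLC38A9, lysosomal carriers of glutamine and arginine, and SLC38A12 rose by 0.21 to 0.29, SLC38A6 did not pass (0.15), and SLC38A10 fell by 0.20 on 212890_at and rose by 0.29 on 230448_at. Of the 13 SLC38 probe sets 6 rose, but 1 without the replicate 2 arrays and 3 without the replicate 3 arrays, and for SLC38A7 218727_at the value was 0.17 (adjusted p = 0.227) without replicate 2. In all, 9 of the 30 amino acid calls were lost under another block, filter, scaling or variance model or without a replicate, with highest adjusted p of 0.0536 to 0.227, and the methods' t-test called 2 higher and 2 lower.

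**Figure D3:**
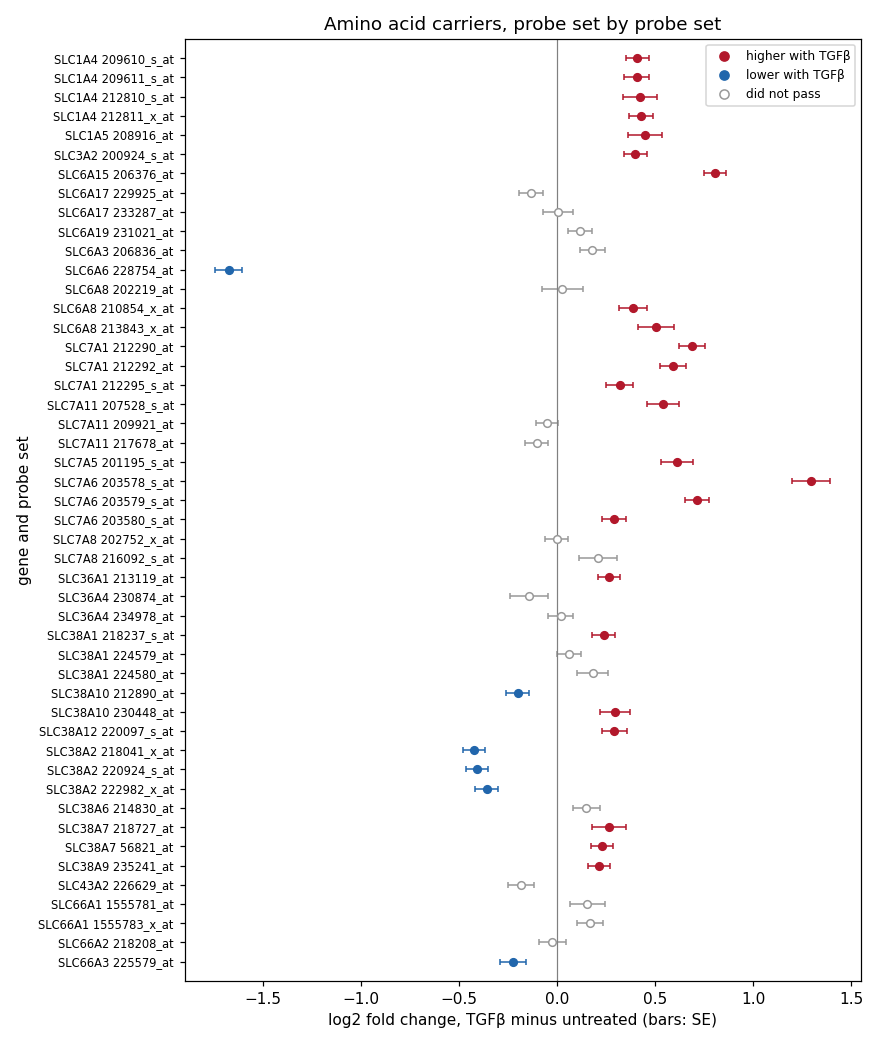
Log2 fold change (TGFβ minus untreated) with its SE for each of the 48 amino acid carrier probe sets, red where higher, blue where lower and open where the test was not passed. Probe sets of SLC1, SLC3A2 and most of SLC7 lie to the right of 0, and SLC6A6 (-1.68) and the 3 of SLC38A2 to the left.

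Promoter sequences are given for 4 amino acid carriers, the heavy chain and a pair of SLC7 genes that rose and SLC38A2, which fell. They are the 300 bases around each RefSeq start in GRCh38.p14 (250 before it, 50 after), 5′ to 3′ on the gene's strand. Capitals mark matches to the AP-1 motif TGANTCA, the ATF4 composite motif TGATGNAA or the SMAD short motif CAGACA, searched on both strands, as was the SMAD box GTCTAGAC.
SLC3A2 (chr11:62881449-62881748, plus strand), shown for its matches to AP-1 and the ATF4 composite motif, which begin at positions -37 and 37 from the start:
SLC3A2: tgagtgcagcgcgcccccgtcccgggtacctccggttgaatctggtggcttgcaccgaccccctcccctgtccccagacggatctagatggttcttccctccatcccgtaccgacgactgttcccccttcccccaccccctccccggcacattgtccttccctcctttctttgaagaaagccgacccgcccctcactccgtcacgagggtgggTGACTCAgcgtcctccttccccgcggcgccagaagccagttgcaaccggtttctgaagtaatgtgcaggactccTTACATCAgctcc
SLC7A1 (chr13:29595639-29595938, minus strand), shown for its ATF4 composite match at position 7:
SLC7A1: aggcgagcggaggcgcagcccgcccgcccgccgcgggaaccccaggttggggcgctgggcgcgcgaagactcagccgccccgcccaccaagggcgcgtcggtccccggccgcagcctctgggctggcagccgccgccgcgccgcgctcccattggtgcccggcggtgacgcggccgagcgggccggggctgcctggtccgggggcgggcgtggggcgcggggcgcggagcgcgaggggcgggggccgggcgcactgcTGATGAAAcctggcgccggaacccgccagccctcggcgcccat
SLC7A6 (chr16:68264276-68264575, plus strand), shown for its SMAD short motif at position -178:
SLC7A6: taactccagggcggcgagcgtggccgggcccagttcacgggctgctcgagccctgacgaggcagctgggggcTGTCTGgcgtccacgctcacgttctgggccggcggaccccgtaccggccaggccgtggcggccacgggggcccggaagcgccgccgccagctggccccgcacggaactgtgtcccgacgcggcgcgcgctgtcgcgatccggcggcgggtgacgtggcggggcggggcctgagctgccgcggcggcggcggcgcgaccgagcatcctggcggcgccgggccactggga
SLC38A2 (chr12:46372724-46373023, minus strand), shown as a carrier that fell and whose window held none of the 4 motifs:
SLC38A2: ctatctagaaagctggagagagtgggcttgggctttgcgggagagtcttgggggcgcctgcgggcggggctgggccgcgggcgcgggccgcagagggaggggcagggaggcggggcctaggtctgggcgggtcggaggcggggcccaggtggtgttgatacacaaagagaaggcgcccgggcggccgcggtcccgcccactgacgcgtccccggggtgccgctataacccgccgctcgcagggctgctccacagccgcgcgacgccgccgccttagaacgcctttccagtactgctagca

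The table of RefSeq windows used here covered 98 of the 118 member genes, SLC4A11 and SLC6A6 not among them. The ATF4 composite motif, bound by the factor that raises amino acid carriers under amino acid lack, was in 7 of the 98 windows (7.14%) against 3.67% of all 27305 windows of this length. AP-1 was in 8 (8.16%) against 7.76%, the SMAD short motif in 8 (8.16%) against 16.8%, and the SMAD box in 0 against 0.201%. None of the printed matches lay on another. The windows of SLC7A5 and SLC1A5, which rose, held none of the 4 motifs. Windows holding the ATF4 composite motif were those of SLC3A2 and SLC7A1, which rose, and of SLC38A1, higher on 1 of 3 probe sets. The motif was also in those of SLC27A5 and SLC39A11, which fell, and of SLC11A1 and SLC17A7, which did not pass. These are matches of letters only, for genes shown after their values were known.

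Carriers of ions and of acid or base equivalents numbered 28 probe sets of 18 genes, with 11 higher (39.3%, against 26.6% of all), 10 lower (35.7%, against 28.5%) and 7 not passing. Besides SLC4A11, the bicarbonate family held SLC4A2 (AE2), the chloride-bicarbonate exchanger of most epithelia, which read 10.66, 10.43 and 10.60 with TGFβ and 9.98, 9.81 and 10.30 without, 1.45-fold higher (adjusted p = 0.00302). SLC4A7, a sodium-bicarbonate cotransporter, rose by 0.25 on 1 probe set and gave 0.05 and 0.08 on the others, and its groups overlapped at the called probe set. That call was lost without the replicate block (adjusted p = 0.073) and without the replicate 3 arrays (adjusted p = 0.0694). Among sodium-proton exchangers, SLC9B2 rose by 0.46, and SLC9D1, a member of the same family by name, fell by 0.40 and 0.32. The smaller fall of SLC9D1 lost its call without the replicate 2 arrays (adjusted p = 0.0544).

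The cation-chloride cotransporters set cell volume and chloride. SLC12A2 (NKCC1), which loads chloride with sodium and potassium, read 9.35, 8.99 and 9.22 on TGFβ arrays and 9.70, 9.81 and 9.90 on untreated arrays at 225835_at, 1.53-fold lower (adjusted p = 0.00266). Its second probe set fell by 0.25, a call lost without the replicate 3 arrays (-0.22, adjusted p = 0.0814). SLC12A7 (KCC4), which extrudes potassium with chloride, read 9.98, 9.87 and 9.99 with TGFβ and 10.42, 10.28 and 10.58 without, 1.39-fold lower, whereas SLC12A4 (KCC1) averaged 7.65 ± 0.08 with TGFβ and 7.37 ± 0.06 without and rose by 0.27. SLC12A4 lost its call without replicate 2 (adjusted p = 0.0554) and without replicate 3 (0.051). SLC12A9 gave -0.11 and did not pass.

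Sulfate carriers were split. SLC26A2, which imports the sulfate used in proteoglycans, rose on all 3 probe sets, by 0.78, 0.64 and 0.38, and 224963_at read 11.68, 11.52 and 11.55 on TGFβ arrays and 10.89, 10.72 and 10.79 on untreated arrays, without overlap. SLC26A11, a second carrier of sulfate or chloride, averaged 10.64 ± 0.05 with TGFβ and 10.84 ± 0.07 without and fell by 0.19, a call lost without replicate 2 or replicate 3 (adjusted p = 0.127 and 0.0949). The SLC26A11 call was also lost with no filter on low signal and with each array centred on its median. SLC41A1, the paralog of SLC41A2, gave -0.20 (adjusted p = 0.059), and SLC41A3, a mitochondrial relative, fell by 0.25 on 1 of 2 probe sets, lost without replicate 3 (adjusted p = 0.0718). With no filter on low signal the SLC41A3 call was also lost.

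**Figure D4:**
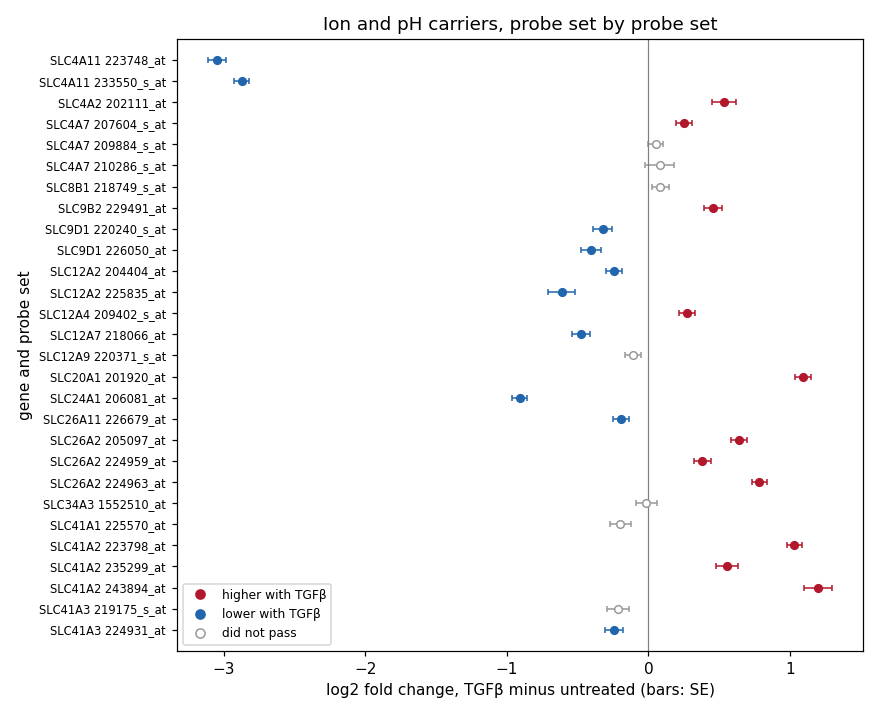
Log2 fold change (TGFβ minus untreated) with its SE for the 28 probe sets of ion and pH carriers, red where higher, blue where lower and open where the test was not passed. SLC4A11 lies near -3, and SLC20A1 and SLC41A2 near 1.

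Zinc carriers formed 31 probe sets of 18 genes, of which 4 rose (12.9%, against 26.6% of all), 8 fell (25.8%, against 28.5%) and 19 did not pass. SLC30 proteins move zinc out of the cytosol, and among their 14 probe sets 0 rose and 5 fell (35.7%). SLC39 proteins bring zinc into it, and among their 17 probe sets 4 rose (23.5%) and 3 fell (17.6%). The difference between the families was not tested. SLC39A14 (ZIP14), which also imports iron and manganese, rose on both probe sets, and 1555434_a_at read 8.85, 8.82 and 8.67 on TGFβ arrays and 8.06, 8.26 and 7.93 on untreated arrays, 1.62-fold higher (adjusted p = 0.000447). SLC39A13, a Golgi importer known from connective tissue disease, rose by 0.39 on 1 probe set and gave 0.18 on the other. SLC39A7 rose by 0.31, a call lost without the block and without replicate 2 or 3 (adjusted p = 0.0572 to 0.0824). SLC39A11 fell by 0.33 and SLC39A9 by 0.28 on 1 of 2 probe sets, SLC39A6 fell by 0.20 on 1 of 4, and SLC39A1, SLC39A3, SLC39A4, SLC39A5 and SLC39A10 did not pass (-0.14 to 0.19).

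Apart from SLC30A4, the falls among SLC30 genes were small. SLC30A9 averaged 9.43 ± 0.10 with TGFβ and 9.79 ± 0.05 without on 202614_at (-0.36, adjusted p = 0.0072) and gave 0.07 on its other probe set. SLC30A6 and SLC30A7, Golgi transporters, fell by 0.19 and 0.21 on 1 probe set each, and SLC30A1, the main exporter at the cell surface, by 0.18 on 1 of 2 (0.13 on the other). SLC30A3 and all 4 probe sets of SLC30A5 did not pass (-0.18 to 0.12). The counts of falls hung on single replicates: the 8 zinc falls became 13 without replicate 1, 4 without replicate 2 and 3 without replicate 3, the 5 of SLC30 became 9, 2 and 2, and the 3 of SLC39 became 1 without replicate 3. With each array centred on its median the zinc falls numbered 4.

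**Figure D5:**
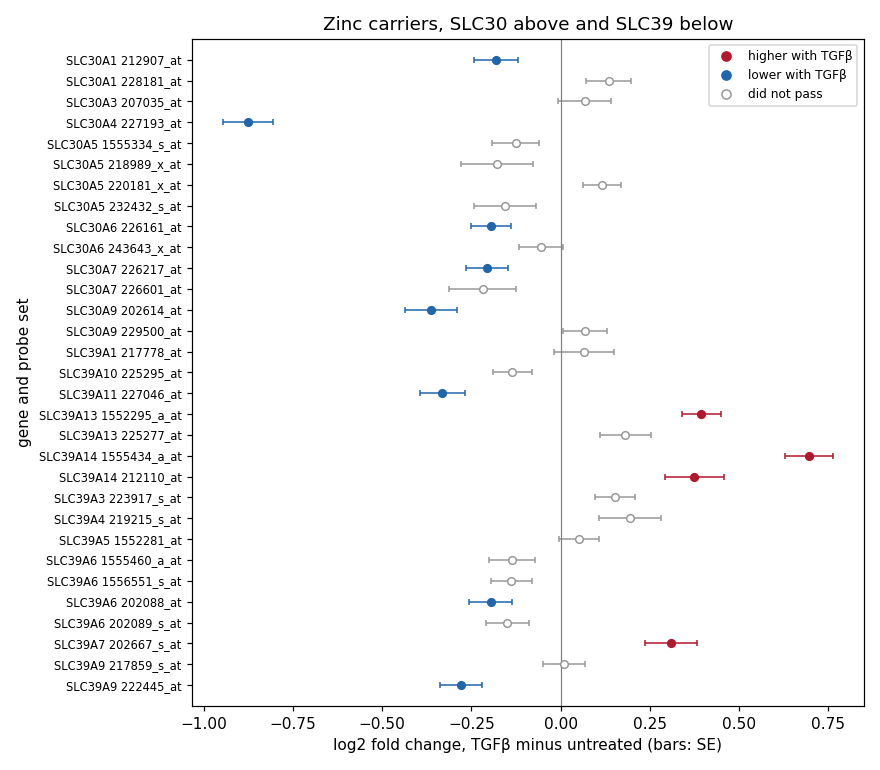
Log2 fold change (TGFβ minus untreated) with its SE for the 31 zinc carrier probe sets, SLC30 in the upper rows and SLC39 in the lower, red where higher, blue where lower and open where the test was not passed. SLC30A4 (-0.88) and 1 probe set of SLC39A14 (0.70) lie furthest from 0.

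Sugar, vitamin and cofactor carriers had 25 probe sets of 16 genes, with 9 higher (36%, against 26.6% of all), 9 lower (36%, against 28.5%) and 7 not passing. Most of the rises were those of B vitamin carriers. SLC19A1, the reduced folate carrier, rose on all 3 probe sets, by 0.63, 0.52 and 0.34, and SLC19A2, which imports thiamine, read 9.11, 8.82 and 8.98 on TGFβ arrays and 8.12, 8.23 and 8.38 on untreated arrays, 1.65-fold higher (adjusted p = 0.00121). SLC52A2, a riboflavin carrier, rose by 0.56 and 0.37, and SLC5A6, which carries biotin and pantothenate, read 9.63, 9.52 and 9.60 with TGFβ and 9.09, 9.02 and 9.15 without, 1.41-fold higher (adjusted p = 0.000786). SLC46A1, the proton-coupled folate carrier, went the other way on 1 probe set (-0.49, adjusted p = 0.00107) and gave -0.03 on its other. SLC37A4, which takes glucose-6-phosphate into the endoplasmic reticulum, fell on both probe sets, by 0.55 and 0.34.

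The vitamin C carrier SLC23A2 had probe sets called in opposite directions. Probe set 209236_at read 7.75, 7.75 and 7.72 on TGFβ arrays and 8.08, 8.09 and 8.32 on untreated arrays (-0.43, adjusted p = 0.00403), and 209237_s_at read 7.21, 7.09 and 6.98 with TGFβ and 6.93, 6.88 and 6.74 without (0.24, adjusted p = 0.0105). The rise lost its call without replicate 2 or replicate 3 (adjusted p = 0.0583 and 0.0587). SLC38A10 was the other gene of this kind, and 28 of the 48 genes with more than 1 member probe set had the same call on all of them.

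Nucleoside carriers had 3 of 6 probe sets higher (50%, against 26.6% of all) and 0 lower (28.5% of all). SLC29A1 (ENT1), which equilibrates nucleosides and takes up gemcitabine, read 11.78, 11.96 and 11.86 on TGFβ arrays and 11.19, 11.22 and 11.29 on untreated arrays at 201801_s_at, and both of its probe sets were 1.55-fold higher (adjusted p = 0.000479 and 0.0016). SLC29A2 (ENT2) rose by 0.32, and the lysosomal SLC29A3 and both probe sets of SLC29A4 did not pass (-0.05 to 0.05). Carriers of lipids and choline had 1 of 6 higher (16.7%), SLC27A4, and 4 lower (66.7%), few probe sets to set beside the 26.6% and 28.5% of all. SLC27A5 fell by 0.40, SLC44A2 by 0.35, SLC27A1 by 0.32 and SLC44A1, a choline carrier, by 0.21 on 1 of 2 probe sets. The TGFβ mean of SLC27A1 lay below the level limit. The falls of SLC44A1 and SLC44A2 were lost without replicate 3 (adjusted p = 0.126 and 0.0715). That of SLC44A1 was also lost without replicate 2 and with no filter on low signal.

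Among other metal and heme carriers 2 of 11 probe sets rose (18.2%, against 26.6% of all), 1 fell (9.09%, against 28.5%) and 8 did not pass. SLC31A1 (CTR1), the high-affinity copper importer, read 9.07, 8.96 and 8.96 on TGFβ arrays and 8.47, 8.62 and 8.66 on untreated arrays at 235013_at, 1.33-fold higher (adjusted p = 0.00522), and its other probe set rose by 0.37. SLC11A2 (DMT1), an iron importer, gave 0.06 to 0.08 on 3 probe sets and did not pass. SLC48A1, a heme carrier of lysosomes, fell by 0.39 on 1 probe set and gave 0.18 and -0.01 on the others. The organic ion, peptide and vesicular group had 4 higher (36.4%), 3 lower (27.3%) and 4 not passing, among them the multidrug extruder SLC47A1 (MATE1), which fell by 0.42, and the lysosomal SLC15A4, which rose by 0.31 on 1 of 2 probe sets. The remaining 9 carrier probe sets, of SLC60 to SLC75, had 1 higher (11.1%), 3 lower (33.3%) and 5 not passing, and the 3 lower became 1 without replicate 2 or replicate 3. Of the 9 probe sets named after a carrier without being one, 4 rose (44.4%) and 0 fell, led by SLC66A1LP at 0.71.

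Carriers that act mainly inside the cell had 9 higher (18%), 13 lower (26%) and 28 not passing of 50 probe sets, and the other carriers 50 higher (39.4%), 33 lower (26%) and 44 not passing of 127, where 26.6% of all probe sets tested were higher and 28.5% lower. The absolute log2 fold change had a median of 0.18 for the intracellular carriers and 0.32 for the others, against 0.22 over all probe sets tested. Without replicate 2 the intracellular carriers had 4 higher and 9 lower, and without replicate 3 they had 4 and 7. The other carriers are those not on the list of intracellular ones, SLC26A11 and SLC38A10 among them, and were not shown to act at the cell surface. No test of the difference between these sets was made.

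Genes that work with the carriers were followed as a list of 30, of which 26 were on the array and 15 reached the level limit with 19 probe sets. Of these, 11 rose, 3 fell and 5 did not pass, where 26.6% of all probe sets rose and 28.5% fell. The sodium pump subunit ATP1B1 rose by 0.74 and 0.63, and its regulator FXYD5 read 10.06, 10.04 and 10.12 on TGFβ arrays and 9.09, 9.11 and 9.10 on untreated arrays at 218084_x_at, a rise of 0.98 (adjusted p = 6.98e-05). Of the chaperones of monocarboxylate carriers, EMB rose by 0.28 and BSG fell by 0.23. Among carbonic anhydrases, which supply bicarbonate and protons, CA13 rose by 0.93 and 0.83 and CA2 by 0.21, and CA8, which lacks the catalytic activity, fell by 0.56. CA11 (-1.84) and a further pair of probe sets of NEDD4L, a ubiquitin ligase (-0.83 and -0.46), lay below the limit over all arrays. They were tested only through the untreated group, which had to be the higher one, so these are values only. The NEDD4L probe set at the limit gave 0.01 and did not pass. The kinase SGK1, which raises carriers at the cell surface, fell by 0.18, and the scaffold NHERF1 did not pass (0.06).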

How the data were processed

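RNA of 6 Panc-1 samples, 3 treated with TGFβ and 3 untreated, was hybridised to 1 array each. The TGFβ dose is 5 ng/mL in the labels and 5 nM in the methods; the conflict is not settled here and the labels' value is used. The authors deposited log2 values, 1 per probe set and array, with the scale read from the values; the software and normalization behind them are not given in the sources used here. Probe sets were assigned to genes by the platform annotation, with symbols checked by Entrez ID against RefSeq (186 of 186 members matched, 0 updated).

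After the filter of the methods, which drops a probe set whose mean signal is under 100 in TGFβ and untreated cells alike, 19120 of 54613 non-control probe sets remained. TGFβ was compared with untreated by a two-sided moderated test (eBayes of limma 3.58.1 in R 4.3.3) that held the replicate number as a block, since the methods use a paired test, and p-values were adjusted by Benjamini-Hochberg over all 19120. The fit had 2 residual and 4.09 prior degrees of freedom. Fold changes are TGFβ minus untreated with the model's standard error (SE). Precision is limited by the number of arrays, and the median SE of members was 0.0628.

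Genes named were the 12 with the largest rise, the 12 with the largest fall and the leading genes of most substrate groups. Also named were all genes of families SLC1, SLC3, SLC4, SLC7, SLC9, SLC12, SLC16, SLC30, SLC38 and SLC39. So were genes called in both directions, those at the level limit and a list of companion genes. Others were named where a group's count was broken down, after their values were seen. The members and lists were chosen with earlier results of these data known. Substrate groups and the list of intracellular carriers follow general knowledge of each family. Promoter windows came from RefSeq (GRCh38.p14).

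The fit was tested on simulated data of 19120 probe sets. It recovered 20 of 50 planted at a log2 change of 0.5, 48 of 50 at 1 and 42 of 50 at -1, with 6 false calls. Few of its probe sets were changed, where 55.1% passed in the data, so these rates do not describe the real comparison. Alternatives covered the block, filters, scaling, an added constant of 16, the variance model, probe sets ending in _x_at, replicates left out, thresholds and the methods' t-test. Figures were made with matplotlib 3.10.9 and pandas 2.3.3 under Python 3.11.15.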

Additional observations from a re-analysis of the deposited data

How the results depend on the processing

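No member that passed the test turned its direction under any alternative run. Of the 109 called members, 79 (50 of 63 higher and 29 of 46 lower) kept their call, where they were tested, under each alternative for the block, the filter, scaling, the added constant, the variance model, _x_at probe sets and left-out replicates. The methods' t-test estimates the spread of each probe set from its own 3 pairs. It called 55 members higher and 36 lower at an unadjusted p under 0.05, against 4258 and 4334 of all 19115 probe sets. After Benjamini-Hochberg adjustment it called 14 members higher and 11 lower, against 1464 and 1465 of the 19115. In the limma fit at an adjusted p under 0.01, 51 members were higher and 30 lower. Requiring 1.5-fold or more left 19 higher and 13 lower. With each replicate left out in turn, 53 to 70 members were higher and 31 to 56 lower, the most without replicate 1. Without replicates 2 and 3, 23 and 25 members lost their call. Deviations from the group means correlated at -0.241, 0.241 and 0.11 for replicates 1, 2 and 3 of both groups. With 3 arrays per group, these values cannot settle whether same-numbered samples were paired, and the methods use a paired test. The fit without the replicate block called 67 higher and 50 lower. The 30 calls lost were of changes of at most 0.39 on the log2 scale in either direction.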

Other observations

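Several SLC probe sets stayed below the level limit over all arrays but were tested because 1 group reached it. Since that group had to be the higher one, their calls are values only. Of 13 such probe sets, SLC16A14, of the monocarboxylate family, averaged 5.60 with TGFβ and 7.29 without (-1.69, adjusted p = 4.97e-05). A second probe set of SLC6A15 averaged 6.68 with TGFβ and 5.09 without (1.59, adjusted p = 4.24e-05), the direction of its member probe set. SLC39A8, a zinc and manganese importer, averaged 6.87 with TGFβ and 6.28 without (0.58, adjusted p = 0.00912). Further probe sets of SLC44A1, SLC44A2 and SLC24A1 gave -0.91, -0.46 and -0.36, each lower like a member probe set of the same gene. SLC66A3, in contrast, was higher on its probe set below the limit (0.18, adjusted p = 0.0315) and lower on its member probe set.

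In the families left out of the rule, the facilitative glucose carriers of SLC2 had 10 probe sets at the level limit, of which 5 rose and 1 fell. The mitochondrial carriers of SLC25 had 56, with 14 higher and 12 lower, and the nucleotide-sugar carriers of SLC35 had 39, with 12 higher and 7 lower, where 26.6% and 28.5% of all tested probe sets were higher and lower.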
